A study of Mus musculus with 41 samples.

Results

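The genes described here are 10 genes that mark or act in the trophoblast, the outer lineage of the conceptus that forms the placenta: Adm, Procr, Psg22, Tpbpa, Hand1, Ascl2, Plac1, Gata2, Gata3 and Itgb3. They were chosen by name, out of 22438 genes with a row in the ribosome footprint tables, because of their footprint levels in mouse embryos that lack Hbs1l, so their embryo values are given as a description and carry no test. Measured were ribosome-protected footprints (RPF, the short mRNA pieces covered by translating ribosomes, counted here over coding sequence) in cells or tissue of mutants and controls, and RNA in the cells. The question was what happens when the ribosome rescue factors HBS1L and PELO, which release ribosomes stalled on an mRNA, or the nonsense-mediated decay factor UPF2, are removed.

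The embryo libraries came from embryonic day 8.5 C57BL/6NJ embryos, Hbs1l-/- (exon 5 deleted) or Wildtype, with 3 libraries a genotype and 5 embryos pooled in each. The cerebellum libraries came from postnatal day 14 C57BL/6J mice, with 3 mutants that carried Hbs1l fl/- and n-Tr20 B6J/B6J and 3 Hbs1l+/+ controls, all with Tg(Atoh1-Cre), and 1 cerebellum in each of 3 libraries a group. The n-Tr20 genotype of the cerebellum controls and of the embryos is not given here. Atoh1-Cre acts in the granule cell lineage, so other cerebellar cells of the mutants keep Hbs1l. The fibroblast libraries came from mouse embryonic fibroblasts (MEFs) that all carried Tg(CAG-Cre/Esr1), a Cre that 4-hydroxytamoxifen switches on, and n-Tr20 B6J/B6J, a mutated tRNA gene of the C57BL/6J strain. MEFs with conditional alleles of Hbs1l, Pelo or Upf2 and their controls all received 4-hydroxytamoxifen at 1 μM for 48 hours. Each MEF footprint library was made from 2 dishes and each RNA library from 1 dish, in both cases of cells from 1 embryo. There were 3 libraries a group, except for 2 Pelo RNA libraries.

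Library totals ran from 2634480 to 7298812 counts in embryos, from 10919139 to 22591768 in cerebellum, from 5782990 to 25607974 in MEF footprints and from 22713643 to 86425762 in MEF RNA. Levels are counts scaled to a library total of 1000000 (CPM), and 3 counts, the most that a count of 0 allows, equal 0.411 to 1.14 CPM in the embryo libraries. Such limits cover counting error only. The 3 sets of MEF footprint controls were labelled as separate pools, but libraries with the same number differed by 1.11 to 1.19 chi-square units a gene, against 4.17 to 12.1 for libraries with different numbers. Same-numbered controls therefore agreed nearly within sampling noise and were averaged to 1 value when a control level is given, and the 3 footprint comparisons share their controls, as do the 3 RNA comparisons. Hbs1l itself was at 2.88, 2.53 and 8.84 CPM in mutant embryos and at 48.8 to 57.7 CPM in Wildtype embryos. Hbs1l footprints were lower in every mutant cerebellum (13.2 to 15.8 CPM against 35.6 to 43.8 CPM) and in every mutant MEF library (1.51 to 2.58 CPM against 32.6 to 37.2 CPM). Pelo footprints stood at 2.03 to 2.93 CPM in Pelo MEFs and at 30.3 to 35.1 CPM in controls. Upf2 went against its label. Its footprints were at 114 to 118 CPM in the libraries labelled Upf2-/- and at 46.4 to 56.9 CPM in controls, and its RNA at 29.5 to 64.8 CPM against 14.7 to 21.7 CPM. These values cover the whole gene and do not measure the deleted part on its own.

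In the mouse conceptus the trophectoderm gives rise to trophoblast stem cells, which form the ectoplacental cone, its spongiotrophoblast and the trophoblast giant cells, as well as the labyrinth where exchange with maternal blood takes place. HAND1 drives giant cell differentiation, ASCL2 maintains the spongiotrophoblast lineage, and GATA2 and GATA3 activate placental hormone genes in giant cells. Giant cells secrete prolactin-family hormones and adrenomedullin (Adm), a vasodilator peptide, and carry the endothelial protein C receptor (Procr), which limits clotting where trophoblast meets maternal blood. Tpbpa is a marker of the spongiotrophoblast and its ectoplacental cone precursors, Psg22 encodes a secreted pregnancy-specific glycoprotein, Plac1 encodes a trophoblast protein needed for normal placental growth, and Itgb3 encodes the integrin β3 chain, which pairs with αv on invasive trophoblast.

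The genes lie on several chromosomes (mouse build GRCm38, Gencode M21 gene bounds). Gata3 (ENSMUSG00000015619.10) is at chr2:9857078-9890034 on the minus strand and Procr (ENSMUSG00000027611.12) at chr2:155751117-155755471 on the plus strand. Gata2 (ENSMUSG00000015053.14) is at chr6:88193891-88207032, plus strand. Chromosome 7 holds Psg22 (ENSMUSG00000044903.15, chr7:18718090-18727248, plus), Adm (ENSMUSG00000030790.15, chr7:110627661-110629820, plus) and Ascl2 (ENSMUSG00000009248.6, chr7:142966829-142969264, minus). Chromosome 11 holds Hand1 (ENSMUSG00000037335.13, chr11:57828705-57832818, minus) and Itgb3 (ENSMUSG00000020689.4, chr11:104608000-104670476, plus). Tpbpa (ENSMUSG00000033834.7) is at chr13:60938492-60941984 and Plac1 (ENSMUSG00000061082.11) at chrX:53069995-53240111, both on the minus strand.

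The promoters of 5 genes are shown, those with the largest fold differences in embryos among the genes with an entry. RefSeq promoter windows (GRCm38.p6) were matched for 7 of the 10 genes, and only bases upstream of both the RefSeq and the Gencode start are printed, 5′ to 3′ on the gene's strand. Capitals mark matches, on either strand, to AGATAA, which factors such as GATA2 bind, to CANNTG, the E-box of bHLH factors such as HAND1 and ASCL2, to ACGTG, bound by HIF, or to TGACTCA, bound by AP-1. The windows are chr7:110627407-110627656 for Adm, chr2:155750967-155751116 for Procr, chr13:60941985-60942186 for Tpbpa, chr7:142969265-142969514 for Ascl2 and chrX:53240112-53240360 for Plac1.
Adm: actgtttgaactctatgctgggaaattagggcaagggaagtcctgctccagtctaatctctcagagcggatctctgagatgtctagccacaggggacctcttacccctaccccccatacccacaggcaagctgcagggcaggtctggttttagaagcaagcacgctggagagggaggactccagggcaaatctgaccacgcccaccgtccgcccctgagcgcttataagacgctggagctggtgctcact
Procr: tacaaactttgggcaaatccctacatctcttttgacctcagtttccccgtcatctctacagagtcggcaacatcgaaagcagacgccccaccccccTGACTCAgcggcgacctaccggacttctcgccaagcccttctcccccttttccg
Tpbpa: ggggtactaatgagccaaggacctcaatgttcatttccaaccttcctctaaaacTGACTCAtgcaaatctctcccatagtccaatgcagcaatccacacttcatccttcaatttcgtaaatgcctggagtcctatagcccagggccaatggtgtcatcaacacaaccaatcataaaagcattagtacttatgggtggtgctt
Ascl2: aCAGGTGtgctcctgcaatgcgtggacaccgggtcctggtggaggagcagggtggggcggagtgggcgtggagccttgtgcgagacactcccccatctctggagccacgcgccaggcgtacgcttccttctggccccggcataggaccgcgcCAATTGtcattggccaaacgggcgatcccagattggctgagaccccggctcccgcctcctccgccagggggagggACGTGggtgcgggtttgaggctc
Plac1: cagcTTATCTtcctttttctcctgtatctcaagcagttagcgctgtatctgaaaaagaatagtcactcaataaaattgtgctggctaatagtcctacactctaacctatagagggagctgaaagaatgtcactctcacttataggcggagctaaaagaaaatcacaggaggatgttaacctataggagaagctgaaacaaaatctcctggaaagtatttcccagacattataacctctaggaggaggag

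Few of these letters recurred. Over the 250 bases upstream of each start, TGACTCA was found in the windows of Procr and Tpbpa, 2 of the 9 windows of these genes, and in 4.46% of all 32851 promoter windows. AGATAA was found in 1 of the 9 windows, that of the distal Plac1 start, and in 9.99% of all windows. CANNTG was found in 3 of the 9, in Procr, Ascl2 and an inner Plac1 start, and in 66.2% of all windows, and ACGTG in 1, Ascl2, and in 16.6% of all windows. In all 7 motifs were searched. Of the other three, CAGCTG was in 1 of the 9 windows and in 13.0% of all, and CATCTG and TATAAA were in 0 of the 9 and in 14.4% and 12.4% of all. CAGCTG and CATCTG are also forms of CANNTG, and an E-box may contain ACGTG, but no capitals overlap in the sequences shown. The Adm sequence holds none of the 4 capitalised motifs.

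Adrenomedullin had the largest log2 fold change of the 9 genes fitted in embryos. Adm footprints were at 228, 128 and 341 CPM in the 3 Hbs1l-/- libraries and at 8.73, 15.7 and 10.6 CPM in the Wildtype libraries. The lowest mutant library lay far above the highest Wildtype library. The log2 fold change was 4.28 ± 0.32 (SE, n = 3 and 3), the 12th highest of 11416 genes tested. Procr was at 62.2, 30.8 and 61.5 CPM in mutants and at 6.45, 5.90 and 7.50 CPM in Wildtype embryos, a log2 fold change of 2.97 ± 0.29. Its groups did not overlap, and the Wildtype libraries were close to one another. Psg22 was at 32.2, 20.5 and 58.0 CPM in mutants and at 0.759, 3.93 and 3.75 CPM in Wildtype embryos, a log2 fold change of 3.62 ± 0.45. The groups were again apart. Psg22 belongs to a family of related genes on chromosome 7, and how reads that match several of them were counted was not tested. Of 12 other Psg genes, 8 had no count in any embryo library.

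Tpbpa was detected almost entirely in one library. The mutant libraries held 21, 2 and 234 Tpbpa counts (2.88, 0.459 and 82.8 CPM) and the Wildtype libraries 0, 1 and 0. It did not pass the filter on low counts and was not fitted. Against a floor of 3 counts a control library, its mean mutant level was at least 29.7-fold higher, but without mutant replicate 3 the same bound was 1.73-fold. Ascl2 was at 8.495, 3.45 and 37.5 CPM in mutants and at 4.18, 1.48 and 0.341 CPM in Wildtype embryos. Its groups overlapped, since mutant replicate 2 lay below Wildtype replicate 1. The log2 fold change of Ascl2 was 3.02 ± 0.82, and 1.69 without mutant replicate 3. Plac1 was at 113, 70.8 and 418 CPM in mutants and at 47.8, 26.6 and 41.3 CPM in Wildtype embryos. All 3 mutant libraries were above all Wildtype libraries, with a log2 fold change of 2.38 ± 0.49, or 1.30 without mutant replicate 3.

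The other fitted genes, Gata2, Gata3, Hand1 and Itgb3, had smaller log2 fold changes. Gata2 was at 35.6, 18.4 and 53.1 CPM in mutants and at 17.5, 15.0 and 9.20 CPM in Wildtype embryos, with groups that did not overlap by a narrow margin and a log2 fold change of 1.35 ± 0.34. Gata3 was at 26.3, 13.8 and 38.2 CPM against 20.1, 18.4 and 16.0 CPM, and mutant replicate 2 was the lowest of all 6 libraries. Its log2 fold change was 0.51 ± 0.30. Hand1, the gene with the highest level per coding length in Wildtype embryos, was at 163, 109 and 251 CPM against 120, 97.1 and 106 CPM. Its groups overlapped and its log2 fold change was 0.70 ± 0.23. Libraries of pooled embryos do not show which cells the Hand1, Gata2 and Gata3 footprints came from. Itgb3 was at 27.8, 17.5 and 54.1 CPM in mutants and at 8.35, 11.3 and 11.6 CPM in Wildtype embryos, with no overlap and a log2 fold change of 1.64 ± 0.35.

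**Figure D1:**
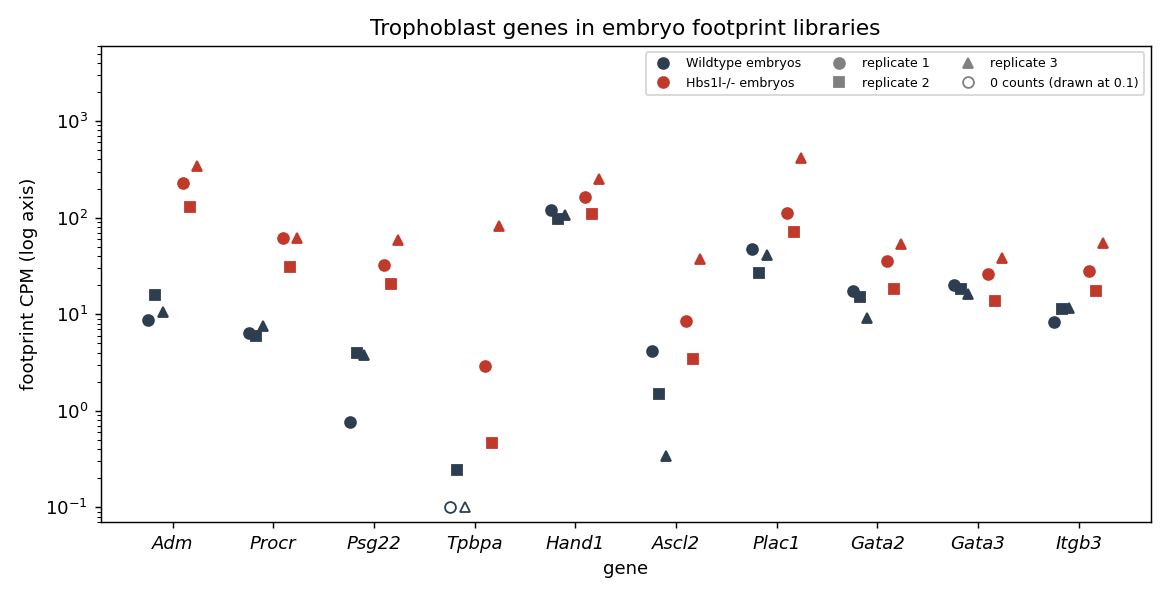
Footprint level of each gene (CPM, log axis) in the 6 embryo libraries, with Wildtype in dark blue and Hbs1l-/- in red and one marker shape a replicate. Adm mutant libraries (128 to 341 CPM) sit above Wildtype (8.73 to 15.7 CPM), while Hand1, Ascl2 and Gata3 overlap, and open symbols mark 0 counts.

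Of the 9 genes that passed the filter all 9 had a positive log2 fold change, with a median of 2.38 beside 0.01 over all genes tested. In 6 of the 9, and in Tpbpa, every mutant library was above every Wildtype library, a pattern found in 11.0% of all genes tested. Nothing is read from these counts, because the genes were picked on this contrast. Of all genes tested in embryos 1.87% passed an adjusted p of 0.05 (edgeR's quasi-likelihood test).

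The 3 mutant libraries kept nearly one order. Mutant replicate 2 was the lowest for all 10 genes and mutant replicate 3 the highest for 9 of the 10, the exception being Procr. The highest mutant library exceeded the lowest by 2.02-fold for Procr, 2.30-fold for Hand1, 2.67-fold for Adm, 5.90-fold for Plac1 and 10.9-fold for Ascl2. Levels summed over the 10 genes were 699, 412 and 1395 CPM in mutants and 196 to 234 CPM in Wildtype embryos. In pools of whole embryos a change in the number of trophoblast cells and a change in the RNA or translation of each cell cannot be told apart.

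Levels can be compared between genes only per coding length. Adm stood first in mutant embryos at 420 ± 193 CPM per kilobase of coding sequence (SD, n = 3), followed by Plac1 at 386 ± 365 and Hand1 at 269 ± 111. In Wildtype embryos the order was Hand1 at 166 ± 18.1, Plac1 at 74.3 ± 21.0 and Adm at 21.2 ± 6.58 CPM per kilobase. The first 3 places in mutants do not differ beyond their spread, while in Wildtype embryos Hand1, Plac1 and Adm are separated by more than theirs. Itgb3 had the lowest mean in mutants at 14.03 ± 8.004, within the spread of Gata3, Ascl2 and Psg22 and above Tpbpa in mutant replicates 1 and 2, and Tpbpa was the lowest in Wildtype at 0.160 ± 0.278 CPM per kilobase.

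Other trophoblast genes, from lists put together with earlier results of these data in view, were tested in the same embryo fit. Prolactin-family hormones summed to 505, 344 and 1387 CPM in mutants and to 18.6, 36.6 and 34.1 CPM in Wildtype embryos, and 10 of 23 genes passed the filter and were called higher. Apart from Prl7a1, none of the 10 reached the filter's level in all Wildtype libraries, so they passed it only through the mutant libraries (Prl2a1, Prl2c2 and Prl3d2 had at most 3 counts in any Wildtype library), and the count of calls among the genes that passed supports nothing about the family. Among pregnancy-specific glycoproteins only Psg29 of 12 was tested, at 29.2, 17.2 and 87.0 CPM against 1.14, 3.69 and 1.02 CPM. It too passed the filter only through the mutant libraries (75 to 246 counts, against 3, 15 and 3), so its call is not used. A total of 8 other Psg genes had no count in any embryo library. From the spongiotrophoblast and giant cell list Flt1, a VEGF receptor, rose (0.88 ± 0.17, adjusted p = 0.0226, edgeR). Which cells of the pooled embryos the Flt1 footprints came from was not tested. Cts7, a placental cathepsin, was at 10.1 to 74.6 CPM in mutants and at 1.72 to 4.09 CPM in Wildtype embryos, and since it passed the filter only through the mutant libraries its call is not used. The Flt1 call was lost without Wildtype replicate 1, 2 or 3 (adjusted p = 0.111 to 0.165) and without mutant replicate 2 (0.062) or 3 (0.0555, edgeR). The calls of Prl2a1, Prl2c1, Prl2c5 and Prl4a1 were lost without any one Wildtype library (adjusted p = 0.0568 to 0.173, edgeR), and that of Prl2c5 also without mutant replicate 3 (0.0637) and with DESeq2 (0.0575). DESeq2 gave no adjusted p for Prl4a1 (log2 fold change 6.25), so that gene was not called there either.

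The factors of trophoblast stem cells did not pass the test. None of the 8 on the list was called by edgeR. Positive log2 fold changes were found for 7, with a median of 0.85, but nothing is read from these values. Esrrb, at 9, 0 and 5 counts in Wildtype libraries and 24, 35 and 29 in mutants, was kept by the filter largely through the mutant libraries. Eomes (14, 12 and 2 counts) and Elf5 (33, 13 and 6) were also low in some Wildtype libraries. Tfap2c was at 32.1, 23.7 and 104 CPM in mutants and at 17.1, 17.5 and 22.5 CPM in Wildtype embryos (log2 fold change 1.46 ± 0.42, adjusted p = 0.0927, edgeR). Cdx2, a marker of trophoblast stem cells that the posterior embryo also expresses, was at 137, 80.9 and 97.3 CPM against 80.9, 86.8 and 89.3 CPM. From the labyrinth and syncytiotrophoblast list Rhox9 was at 17.9, 5.28 and 35.0 CPM in mutants and at 1.90, 2.70 and 4.43 CPM in Wildtype embryos. It also passed the filter only through the mutant libraries and its call is not used. The 5 other tested genes of that list did not pass the test, and Synb, a fusion protein of the syncytiotrophoblast, had no count in any embryo library. None of the 8 tested placental imprinted genes passed, with a median log2 fold change of -0.10.

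The partners of the 10 genes were tested in the same way. Thrombomodulin (Thbd), which activates protein C on the same surface as the Procr receptor, rose: it was at 40.1, 22.3 and 39.6 CPM in mutants and at 8.73, 8.36 and 14.3 CPM in Wildtype embryos (log2 fold change 1.72 ± 0.29, adjusted p = 0.00928, edgeR). Without Wildtype replicate 1 or 2 its adjusted p was 0.075 or 0.106 (edgeR). The other four tested genes of that pathway did not pass. Thbd is also a marker of parietal endoderm, and the 5 other parietal endoderm markers did not pass, with Sparc higher (0.52 ± 0.17) and Col4a2 lower (-0.32 ± 0.14) in all mutant libraries. That list summed to 2497 to 3071 CPM in mutants and 2112 to 2890 CPM in Wildtype embryos. No adrenomedullin receptor gene passed, and the receptor Calcrl was at 31.2, 34.7 and 33.2 CPM against 26.6, 34.2 and 23.2 CPM. None of 8 integrin partners and ligands passed, and the αv chain Itgav had a log2 fold change of 0.28 ± 0.14. None of 8 GATA family genes and cofactors passed. Id3, an inhibitor of bHLH factors, fell (log2 fold change -0.88 ± 0.18, adjusted p = 0.0265, edgeR), a call lost without any one Wildtype library (0.103 to 0.19) or mutant replicate 2 (0.0784) or 3 (0.0707), and the 7 other bHLH partners and inhibitors did not pass.

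**Figure D2:**
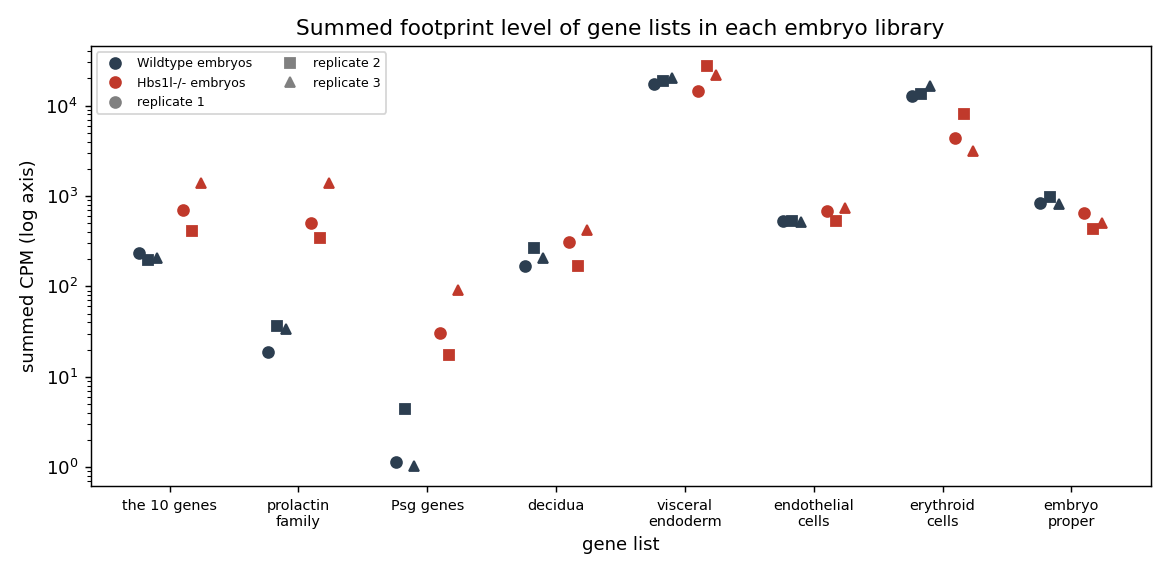
Summed footprint level (CPM, log axis) of gene lists in each embryo library, with Wildtype in dark blue, Hbs1l-/- in red and one marker shape a replicate. The 10 genes and the prolactin family are higher in all mutant libraries (344 to 1387 CPM against 18.6 to 36.6 CPM for prolactins), while erythroid and embryo proper lists are lower.

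Markers of other cell types moved as well. The 10 erythroid genes summed to 4334, 7982 and 3125 CPM in mutants and to 12680 to 16560 CPM in Wildtype embryos. Of 9 tested, 3 fell, among them the embryonic globin Hbb-y (-3.27 ± 0.23). Genes of the embryo proper summed to 429 to 646 CPM against 821 to 971 CPM. Of the 10, 3 fell, the heart genes Myl7, Myh6 and Tnnt2 (adjusted p = 0.0462, 0.0421 and 0.00723, edgeR). Of 8 endothelial genes Pecam1 rose and the 7 others did not pass, 4 of the 8 had a positive log2 fold change, and the median was -0.032. The list summed to 532 to 744 CPM against 511 to 528 CPM, with Cdh5 at 143 to 343 CPM against 134 to 143 CPM and Emcn at 5.48 to 10.3 CPM against 10.8 to 13.7 CPM. Decidua markers overlapped at 170 to 423 CPM and 169 to 263 CPM, of which Prl8a2 made up 42.5 to 302 CPM and Alpl 55.9 to 90.4 CPM, while the receptors Pgr and Esr1 stayed at 0 to 5.69 CPM. Of 6 fibroblast genes 2 fell, the collagens Col1a1 and Col3a1 (adjusted p = 0.0324 and 0.00789, edgeR). The list summed to 922 to 1322 CPM against 1279 to 1364 CPM. Calls over all embryo genes went from 214 to 45, 28 and 46 without Wildtype replicates 1, 2 and 3. The calls of single marker genes are not given with libraries left out. None of 5 markers of extraembryonic mesoderm and allantois passed (102 to 221 CPM against 166 to 198 CPM). Markers of megakaryocytes, which also carry Itgb3, overlapped at 14.5 to 31.5 CPM and 17.95 to 26.95 CPM, and the defining gene Pf4 stayed at 0 to 1.52 CPM. Visceral endoderm markers overlapped (14440 to 27430 CPM against 17340 to 20310 CPM). Leukocyte and uterine NK markers were at 5.11 to 30.8 CPM with Gzma at 0 in every embryo library. The part that a different share of maternal, extraembryonic or blood tissue has in the values of the 10 genes was not tested.

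By the likeness of the profile over the 6 embryo libraries, Plet1, a trophoblast and ectoplacental cone gene, had a Pearson r of 0.994 with the mean log2 CPM of the 9 filtered genes. It was at 131, 62.5 and 498 CPM in mutants and at 8.73, 13.3 and 10.9 CPM in Wildtype embryos. Prl5a1, of the prolactin family, had an r of 0.989. The other six of the closest 8 of 10391 genes were Rpl32, Scamp3, Sqstm1, Adam9, Adgrf5 and Bdh1, with r of 0.988 to 0.998. Such an r ignores the size of a difference: Rpl32 ran only from 227 to 339 CPM. All points share their libraries and the r values are a description.

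Loss of Hbs1l in the cerebellum was not accompanied by a call for any of these genes. Psg22 and Tpbpa had 0 counts in every cerebellum library, and Hand1 and Plac1 had at most 1 count. Of the 5 genes that passed the filter none was called, and 0.0624% of 14430 genes tested were. Gata3 was at 7.13, 0.550 and 6.29 CPM in mutants and at 1.96, 2.49 and 0.756 CPM in controls, so that its groups overlapped and mutant replicate 2 was the lowest. Its log2 fold change was 1.37 ± 0.73 (adjusted p = 0.461, edgeR). Adm was at 2.92, 2.93 and 3.54 CPM in mutants and at 2.58, 4.57 and 3.69 CPM in controls, with a log2 fold change of -0.31 ± 0.26 (adjusted p = 0.649, edgeR).

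**Figure D3:**
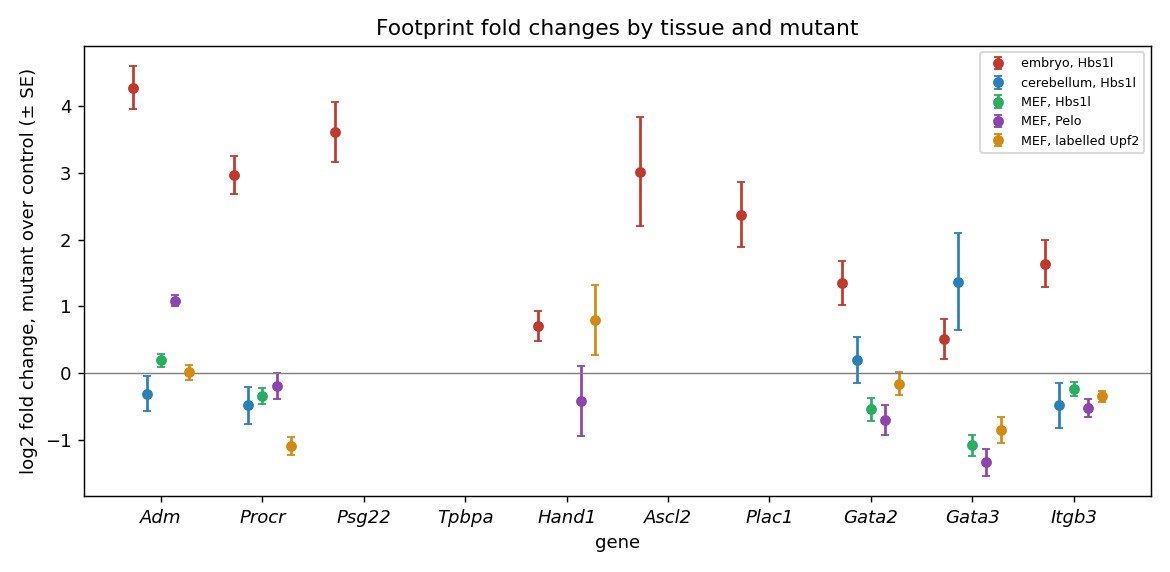
Log2 fold change of footprints in mutants over controls with its standard error, for each gene that passed the filter in the embryo, the cerebellum and the 3 MEF comparisons. Embryo values run from 0.51 to 4.28, Adm in Pelo MEFs is at 1.09, and Gata3 lies between -0.86 and -1.34 in the MEF comparisons.

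In MEFs 5 of the 10 genes were measured well enough to be tested after loss of Hbs1l. Psg22 and Tpbpa again had 0 footprint counts in every library. With loss of Hbs1l, 3 of 5 tested genes fell in footprints, where 34.1% of 11984 genes were called and 16.7% were called lower. Gata3 was at 14.7, 10.6 and 14.2 CPM in mutants and at 25.7, 34.6 and 21.6 CPM in controls, and no mutant library reached a control library (log2 fold change -1.09 ± 0.16, adjusted p = 0.000172, edgeR). Gata2 fell by 0.55 on the log2 scale (SE 0.17, adjusted p = 0.0262, edgeR). Procr fell by 0.35 (SE 0.12, adjusted p = 0.0364, edgeR), and both calls were lost under some alternatives. Without mutant replicate 2 or control replicate 2 the Gata2 adjusted p was 0.0814 or 0.12, and without control replicate 1 it was 0.062. Without mutant replicate 1 or 2 or control replicate 2 the Procr adjusted p was 0.151, 0.0876 or 0.171 (edgeR), and with DESeq2 it was 0.0632. Adm was at 105, 88.8 and 83.6 CPM against 70.0, 85.6 and 80.8 CPM and did not pass (log2 fold change 0.19 ± 0.10, adjusted p = 0.172, edgeR), and without control replicate 2 it was 0.29 with an adjusted p of 0.0441.

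In RNA of the same genotype Gata3 was at 9.85, 6.22 and 8.20 CPM against 13.98, 12.7 and 9.81 CPM in controls, and its log2 fold change of -0.61 ± 0.21 missed the threshold (adjusted p = 0.0647, edgeR). It passed with DESeq2 (adjusted p = 0.0236), with no filter on low counts (0.00763), and without mutant replicate 1 (0.0432) or control replicate 3 (0.0427, edgeR). Hand1, at 0.162 to 0.376 CPM in mutants and 0.486 to 1.10 CPM in controls, was the 1 of 6 tested genes that passed (-1.73 ± 0.42, adjusted p = 0.0197, edgeR), where 23.1% of 15318 genes were called. Without mutant replicate 2 or control replicate 3 its adjusted p was 0.0803 or 0.0849. Translation efficiency, the footprint change relative to the RNA change, was called for none of the 5 tested genes, and for 0.0336% of 11907 genes, while 2064 genes were below an unadjusted p of 0.05. The 5 log2 values ran from -0.46 ± 0.29 for Gata3 to 0.18 ± 0.19 for Itgb3, and missing the threshold does not show that translation efficiency was unchanged.

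In Pelo MEFs Adm footprints rose and Adm RNA did not pass the test. Adm footprints were at 178, 157 and 172 CPM in Pelo MEFs and at 70.0, 85.6 and 80.8 CPM in controls, well apart (log2 fold change 1.09 ± 0.09, adjusted p = 7.88e-06, edgeR). Adm RNA was at 23.9 and 24.7 CPM in the 2 Pelo libraries and at 23.2, 20.3 and 22.2 CPM in controls (0.13 ± 0.11, adjusted p = 0.405, edgeR). Its translation efficiency was higher by 0.98 ± 0.14 on the log2 scale (adjusted p = 0.000139, edgeR), and this call held under all 14 alternatives. The background was high, with 44.1% of 12486 genes called in footprints (2858 of them higher) and 44.6% of 12143 in translation efficiency. The receptor genes Calcrl (1.21 ± 0.20) and Ramp2 (1.61 ± 0.28) and the related peptide gene Adm2 (1.52 ± 0.18) also rose in footprints of Pelo MEFs, 3 of the 5 genes on the adrenomedullin list. Genes of this list also rose where Adm footprints did not pass. In Hbs1l MEFs 2 of 5 rose (Calcrl at 0.69 and Ramp2 at 1.11), where 34.1% of 11984 genes tested were called, 2081 of them higher. In MEFs labelled Upf2-/- 3 of 5 rose (Ramp2 at 1.59, Ramp3 at 0.88 and Adm2 at 2.31), where 43.4% of 12166 were called, 2715 of them higher. These comparisons share their controls, and beside such shares nothing about the list is read from counts of 5 genes.

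Procr, Gata2, Gata3 and Itgb3 went the other way in translation efficiency. Procr RNA was at 21.5 and 19.0 CPM in Pelo MEFs and at 9.82, 10.1 and 10.3 CPM in controls (log2 fold change 0.99 ± 0.10, adjusted p = 0.00116, edgeR), while its footprints were at 25.2, 27.2 and 15.7 CPM against 25.5, 30.4 and 24.7 CPM and did not pass (-0.20 ± 0.20, adjusted p = 0.444, edgeR). The Procr translation efficiency was lower by a log2 value of -1.17 ± 0.26 (adjusted p = 0.0027, edgeR). In RNA 3 of 6 tested genes rose, Procr, Gata2 and Itgb3, where 32.1% of 14705 genes were called, 2283 of them higher. Gata2 RNA rose by 0.64 ± 0.12, its footprints fell, at -0.71 ± 0.22, and its translation efficiency was at -1.33 ± 0.28 (adjusted p = 0.00192, edgeR). The footprint call was lost without mutant replicate 1 (adjusted p = 0.0816), mutant replicate 3 (0.0673) or control replicate 2 (0.108, edgeR). Gata3 footprints were at 9.80, 13.2 and 9.06 CPM against 25.7, 34.6 and 21.6 CPM (-1.34 ± 0.20, adjusted p = 0.000487, edgeR), and its translation efficiency was at -1.68 ± 0.30. Itgb3 footprints were at 39.3, 45.8 and 31.0 CPM against 57.3, 52.0 and 57.1 CPM (-0.52 ± 0.13), its RNA was at 37.6 and 35.6 CPM against 18.5, 28.2 and 27.4 CPM (0.55 ± 0.16), and its translation efficiency at -1.05 ± 0.22. The RNA call of Itgb3 was lost without mutant replicate 1 (adjusted p = 0.172), mutant replicate 2 (0.134) or control replicate 3 (0.0581), and that of Gata2 without mutant replicate 2 (0.0823, edgeR).

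**Figure D4:**
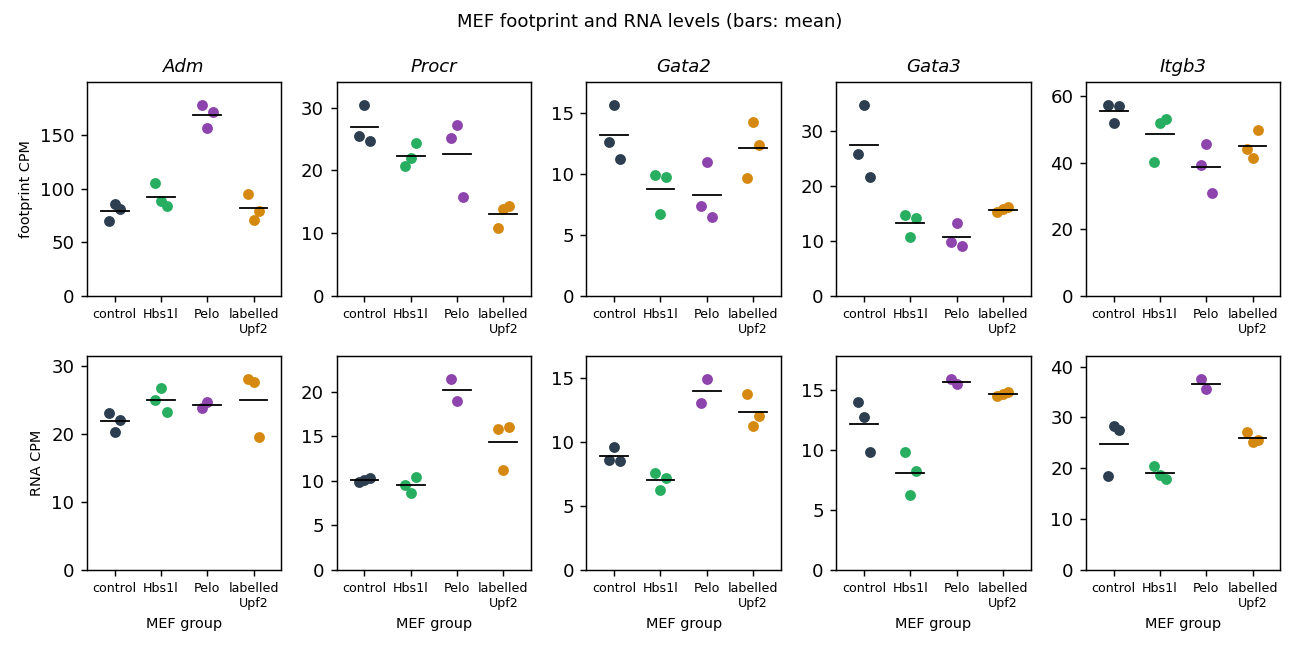
Footprint (upper) and RNA (lower) CPM of 5 genes in MEF libraries, with points for single libraries (same-numbered control footprint libraries averaged) and bars for the mean. Adm footprints are at 157 to 178 CPM in Pelo MEFs with RNA near control. Procr RNA is at 19.0 to 21.5 CPM in Pelo MEFs, with footprints at 15.7 to 27.2 CPM against 24.7 to 30.4 CPM in controls.

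In the libraries labelled Upf2-/-, where Upf2 itself was higher, Procr footprints were at 10.9, 13.9 and 14.3 CPM and at 25.5, 30.4 and 24.7 CPM in controls (log2 fold change -1.09 ± 0.14, adjusted p = 9.35e-05, edgeR). Gata3 was at 15.2, 15.7 and 16.1 CPM (-0.86 ± 0.19) and Itgb3 at 44.1, 41.3 and 49.8 CPM (-0.35 ± 0.08), so that 3 of 6 tested genes fell, with 43.4% of 12166 genes called and 21.1% called lower. Procr RNA was at 15.8, 11.2 and 16.0 CPM against 9.82 to 10.3 CPM in controls, all higher, and did not pass (0.45 ± 0.17, adjusted p = 0.085, edgeR), although it did with no filter on low counts (0.039) and without mutant replicate 2 (0.0199). Its translation efficiency was at -1.57 ± 0.23 (adjusted p = 0.000651, edgeR), in a comparison that called 20.3% of 12054 genes. That of Gata3 was also lower (-1.09 ± 0.27, adjusted p = 0.0112, edgeR), a call that held in all 15 alternatives. With Hand1, below, 3 of 6 tested genes were called in translation efficiency. Adm footprints did not pass the test (0.01 ± 0.11, adjusted p = 0.966, edgeR). Hand1 RNA, the 1 of 6 tested genes called in RNA (20.0% of 15983 genes were), and Hand1 translation efficiency passed at levels under 1.2 CPM (adjusted p = 0.0466 and 0.0451, edgeR), and those calls were lost in 7 of 10 and 11 of 15 alternatives.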

How the data were processed

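Per the labels and the study's methods, the authors clipped the footprint reads, removed ribosomal and transfer RNA with Bowtie2 2.2.3, aligned to mm10 with HISAT2 2.1.0 and deposited raw counts over coding sequence from featureCounts. The RNA files hold, as deposited, kallisto 0.42.4 output: estimated counts and TPM. The estimated counts were summed by gene and rounded for the tests, and the TPM values were not used in a test. Counts were fitted with edgeR 4.0.16 (R 4.3.3; filterByExpr, TMM, quasi-likelihood test, Benjamini-Hochberg adjustment over all genes tested, threshold 0.05), without genes with histone symbols in footprints. Translation efficiency, an assay by genotype interaction, was added after the data were seen, with its alternatives. DESeq2 1.42.0, RLE factors, no filter, leaving out libraries and a replicate block were tried. There were 30 footprint and 11 RNA libraries. The fits were tested on simulated data, where the translation efficiency test missed many changes of moderate size in the Pelo comparison. Per the study's methods each replicate was a separate pool of embryos, a cerebellum or MEFs of a separate embryo, so p-values measure the spread between these. The 10 genes, all lists and the rule for named genes (these genes, the targeted genes, list genes past the threshold or otherwise highest in embryos, and the 8 genes most alike) were chosen with earlier results of these data known. The result of one listed gene is not reported here.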

Additional observations from a re-analysis of the deposited data

Results flagged for a closer look

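Procr and Gata2 were picked out because, after loss of Hbs1l, every mutant embryo library was above and every mutant MEF library below its controls. In embryos 11.0% of all genes tested had every mutant library above every Wildtype library. In Hbs1l MEF footprints 16.7% were called lower. Some margins were narrow. For Gata2 the lowest mutant embryo library was at 18.4 CPM and the highest Wildtype library at 17.5 CPM. For Procr the highest mutant MEF library was at 24.3 CPM and the lowest control of its pool at 24.9 CPM. The MEF calls of both genes were lost in 4 of 10 alternatives. The log2 fold change of Procr was 2.97 in embryos and -0.35 in MEFs. That of Gata2 was 1.35 in embryos and -0.55 in MEFs. The difference between the tissues was not tested, and the embryo side was used to choose both genes.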

How the results depend on the processing

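In embryos 214 genes were called, against 417 with DESeq2, 703 with no filter on low counts, 564 with the replicate block and 28 to 2309 when one library was left out (2309 without mutant replicate 1, 119 without mutant replicate 2, 107 without mutant replicate 3, and 45, 28 and 46 without control replicates 1, 2 and 3). The 15 called genes of the trophoblast lists became 23 with no filter and 7 to 21 with one library left out. Most of the 15 passed the filter only through the mutant libraries (the prolactin genes apart from Prl7a1, with Psg29, Cts7 and Rhox9). These counts therefore show only how calls moved and support nothing about the lists. In cerebellum 9 genes were called, against 482 with DESeq2, 16 with no filter, 0 with the replicate block (2090 at an unadjusted p under 0.05) and 0 to 560 with one library left out. Leaving out one library gave 1 to 4 called members in Hbs1l MEF footprints. In Hbs1l MEF RNA it gave 1817 to 2663 genes and 0 to 2 members, and DESeq2 and no filter each gave 2 members. In Pelo MEF RNA it gave 1506 to 4802 genes and 1 to 4 members, and the replicate block gave 2955 genes; without one Pelo library the lone sample is assumed to vary like the others. In MEF RNA labelled Upf2-/- it gave 1800 to 3201 genes and 0 to 1 members, with 0 members under DESeq2 and the block and 2 with no filter. For translation efficiency it gave 0 to 67 genes in Hbs1l MEFs (71 with the replicate block) and 1507 to 2840 in MEFs labelled Upf2-/-. Directions turned, with one library left out, for Gata2 in cerebellum (-0.15 to 0.39), Procr (-0.36 to 0.030) and Hand1 (-0.75 to 0.12) in Pelo footprints, Adm in footprints labelled Upf2-/- (-0.10 to 0.10, and -0.0051 with no filter), Itgb3 RNA there (-0.13 to 0.090) and Adm translation efficiency in Hbs1l MEFs (-0.082 to 0.13), none of them called. The causes were not tested. Same-numbered libraries did not pair: their deviations correlated at 0.0185 to 0.0414 in embryos and 0.0133 to 0.0324 in Hbs1l MEF footprints, where every mutant library correlated best with its own number (a hint from the data, not the design), at -0.0919 and -0.0403 in Pelo RNA and at mixed signs elsewhere, so the replicate block changes are given only here. With the block the calls of Gata2 in Hbs1l MEF footprints (adjusted p = 0.0565) and of Hand1 RNA (0.0785) and translation efficiency (0.0983) in MEFs labelled Upf2-/- were lost (edgeR). Embryo totals reached down to 2634480 counts, and Tpbpa, Ascl2 and Psg22 had 0 to 16 counts in the Wildtype libraries there.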
